A study of Mus musculus with 20 samples.

Results

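Tnfrsf12a encodes the receptor for the cytokine TWEAK and is also called Fn14. It was followed in whole mouse testis after heat, on an oligonucleotide array (Affymetrix Mouse Genome 430 2.0) that reads each transcript with 1 or more sets of short probes. Of the 34945 probe sets annotated to a single gene, standing for 18193 genes, 2 are annotated to Tnfrsf12a, and both are described. The gene was chosen by its values in these same arrays, for being among those with the largest late rises after heat. Its differences between heated and control testes are therefore given as a description, with no test. The tests below concern differences between the strains, which the choice of the gene did not use directly. They do use again the heated and control values behind the rise for which the gene was chosen. The p-values of Tnfrsf12a are therefore not independent of the choice.

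The 8-week-old mice belonged to 2 inbred strains, C57BL/6 and AKR/N. In each strain there were unheated controls and testes collected 8, 10, 12 and 24 h after a heat shock of 43 °C that lasted 15 min. Each of the 10 groups had 2 arrays (n = 2), 20 in all. Whether a group's 2 arrays stand for 2 mice is not said in the labels, and the p-values therefore rest on a spread between samples that could be purely technical. The controls have no collection time of their own, so heat and time of collection cannot be told apart. In whole testis, a change in the number of cells of a type and a change in RNA per cell cannot be told apart either.

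Fn14 is the smallest receptor of the TNF receptor family. It has no death domain, and its short cytoplasmic tail binds TRAF adaptor proteins, through which TWEAK, the product of Tnfsf12, activates the canonical and the non-canonical NF-kB pathway. In most healthy adult tissues its level is low, and it is known as a gene induced by growth factors and by tissue injury.

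In the mouse assembly GRCm38.p6, Tnfrsf12a spans 2005 bases on the minus strand of chromosome 17 (chr17:23675445-23677449) in the RefSeq gene table. The 250 bases before its start (chr17:23677450-23677699, minus strand, RefSeq) are shown because the level of the transcript is what the results turn on. They are written 5′ to 3′, with capitals marking each GC box (GGGCGG on either strand), a binding site known for the SP family of transcription factors.

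Tnfrsf12a upstream sequence: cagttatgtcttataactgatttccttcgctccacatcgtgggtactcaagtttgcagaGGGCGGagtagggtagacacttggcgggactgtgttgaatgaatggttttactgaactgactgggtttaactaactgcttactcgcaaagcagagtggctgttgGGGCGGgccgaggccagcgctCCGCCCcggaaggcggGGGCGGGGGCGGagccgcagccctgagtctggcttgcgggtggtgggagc

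The stretch holds 5 GC boxes, whose first letters as printed lie between 191 and 44 bases before the gene's start, and its GC content is 58.8%. Of 32851 RefSeq promoter windows of the same length, 32.7% hold at least 1 GC box, 1.9% hold at least as many as this one, and the median GC content is 52.4%. Neither strand of the stretch holds the AP-1 site TGANTCA (found in 6.7% of the windows), the paired heat shock element unit GAANNTTC (6.7%) or the CRE TGACGTCA (1.5%). The NF-kB site (5.0%) and the CArG box of serum response factor (1.5%) also had no match. A match describes only the letters in this window.

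In unheated testes both probe sets were dim in both strains. The probe set 1418571_at gave signals of 12.4 and 5.09 in the C57BL/6 controls and 13.0 and 4.76 in the AKR/N controls. The probe set 1418572_x_at gave 3.31 and 7.27 in C57BL/6 and 9.64 and 6.52 in AKR/N. All 8 of these values lay under a signal of 17.5, the 40th percentile of the mean levels of all probe sets, which is called the dim signal here. The 1418572_x_at values of the controls were higher than 12.6 to 24.6% of the probe sets on their arrays.

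At 8 h the probe sets did not give the same picture. With 1418571_at the signals were 5.77 and 2.93 in C57BL/6 and 3.35 and 3.14 in AKR/N, all dim. With 1418572_x_at they were 11.5 and 25.4 in C57BL/6 and 9.28 and 21.1 in AKR/N, so that 1 array of each strain was above the dim signal. The gap between the probe sets was largest here, at 1.13 on the log2 scale in C57BL/6 8 h replicate 2. The suffix x of 1418572_x_at marks probes that can also match other transcripts. Over the 20 arrays the log2 values of the probe sets correlated with r = 0.956, where the arrays share their groups, and 1418572_x_at was the higher on 14 of the 20 arrays.

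From 10 h on, every array of both strains was above the dim signal with both probe sets. At 10 h, 1418571_at read 125 and 53.5 in C57BL/6 and 104 and 36.2 in AKR/N, and 1418572_x_at read 142 and 121 against 82.1 and 31.9. With the second probe set both C57BL/6 arrays exceeded both AKR/N arrays, whereas with the first the strains overlapped. At 12 h, 1418571_at read 299 and 103 in C57BL/6 and 163 and 213 in AKR/N, and 1418572_x_at read 255 and 184 against 281 and 188. The strains overlapped at 12 h with both probe sets.

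The strains stood apart at 24 h. The 1418571_at signals were 319.8 and 370.4 in C57BL/6 and 64 and 130.2 in AKR/N. The 1418572_x_at signals were 363 and 391 in C57BL/6 and 72.8 and 162 in AKR/N. Both C57BL/6 arrays were above every other array of the series with both probe sets, and the 1418572_x_at values exceeded 89.5 and 90.1% of the probe sets on their arrays. The group means of 1418572_x_at at 24 h were 21.5 times the dim signal in C57BL/6 and 6.70 times in AKR/N. The plot of signals by time shows means that increase at each time in C57BL/6 from 8 h on and are highest at 12 h in AKR/N.

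**Figure D1:**
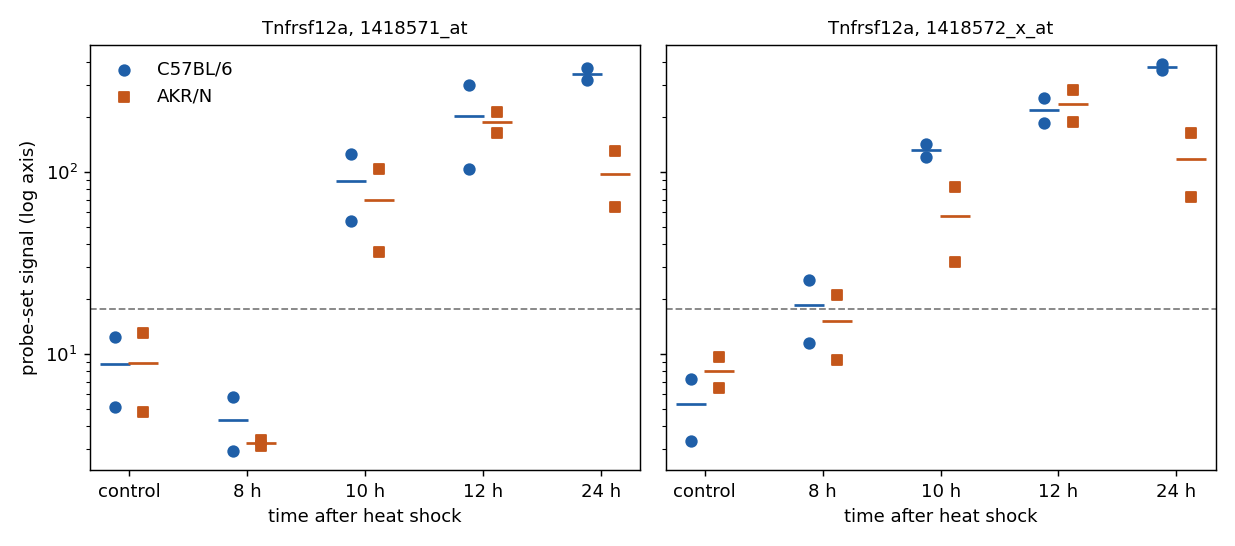
Tnfrsf12a signal on each array (log axis) for the probe sets 1418571_at (left) and 1418572_x_at (right), by time after heat shock, with times spaced evenly. Circles are C57BL/6 arrays, squares AKR/N arrays, short lines the means of 2 arrays, and the dashed line is the dim signal of 17.5. All control arrays lie under the dashed line, and at 24 h the C57BL/6 arrays lie at 319.8 to 391 and the AKR/N arrays at 64 to 162.

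Ordered by the mean of log2(signal + 16), the scale used for all differences, C57BL/6 at 24 h came first with both probe sets (8.62 for 1418572_x_at) and did not overlap with AKR/N at 12 h, the next (7.94). AKR/N and C57BL/6 at 12 h overlapped with each other (7.94 and 7.86). With 1418572_x_at, C57BL/6 at 12 h did not overlap with the next, C57BL/6 at 10 h (7.20), after which AKR/N at 24 h (6.98) and AKR/N at 10 h (6.10) followed, each overlapping with the one before. Below a gap without overlap came C57BL/6 8 h (5.08), AKR/N 8 h (4.94), the AKR/N controls (4.59) and the C57BL/6 controls (4.41), where neighbours overlapped. With 1418571_at the last gap without overlap lay in the same place, between the groups from 10 h on and the controls and 8 h groups, but the 8 h groups were then the lowest of all (4.34 and 4.27).

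Against the controls of its strain, 1418572_x_at differed by 0.67, 2.79, 3.46 and 4.21 in C57BL/6 at 8, 10, 12 and 24 h, each with an SE of 0.365 on the log2(signal + 16) scale. In AKR/N the differences at these times were 0.35, 1.51, 3.36 and 2.39 with the same SE. This scale understates changes of dim genes, so the size of the differences depends on the pseudocount: at 24 h they were 5.98 in C57BL/6 and 3.62 in AKR/N with log2(signal + 1), and 2.67 and 1.29 with log2(signal + 64). Among the 15762 genes tested, the C57BL/6 difference ranked 136, 5, 3 and 1 from the top at the successive times, and the AKR/N difference 1033, 33, 4 and 2, a description of values the gene was selected on. With 1418571_at the differences were -0.27, 2.02, 2.99 and 3.88 in C57BL/6 and -0.35, 1.69, 3.05 and 2.14 in AKR/N (SE 0.471). The probe sets thus differed in sign at 8 h and ran the same way from 10 h on.

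**Figure D2:**
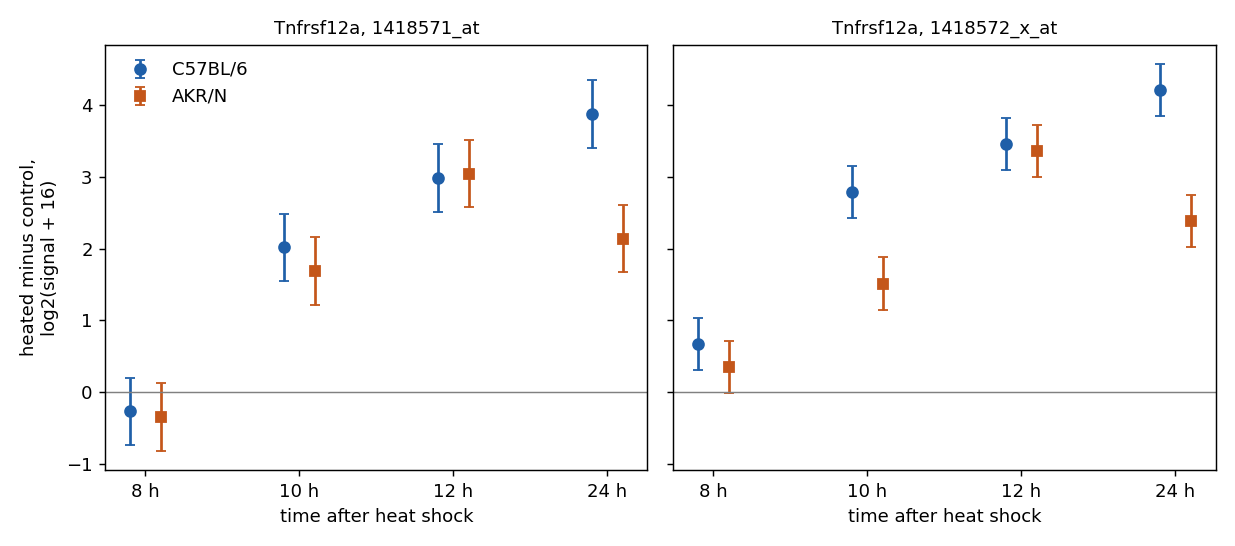
Heated minus control difference of Tnfrsf12a on the log2(signal + 16) scale by time after heat shock, with times spaced evenly, for 1418571_at (left) and 1418572_x_at (right). Points are differences of means of 2 arrays and bars are 1 SE of the limma fit. The strains lie together at 12 h (3.46 and 3.36 with 1418572_x_at) and apart at 24 h (4.21 and 2.39).

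The array C57BL/6 12 h replicate 2 had the highest ratio of 3' to 5' probe signal for beta-actin, which reflects RNA integrity, at 3.57 where the other 19 lay between 1.87 and 2.92. Its 1418571_at signal was 103 against 299 in its replicate. Without this array, the C57BL/6 12 h difference with 1418572_x_at was 3.67 in place of 3.46. The ratio also differed between the strains at 24 h without overlap, at 2.84 and 2.58 in C57BL/6 and 2.14 and 2.17 in AKR/N, where the controls had 2.14 and 2.46, and 2.92 and 2.39. Its part in the 24 h strain difference of Tnfrsf12a was not tested. Over the 20 arrays the median signal ran from 24.9 to 34.9, and replicates correlated across genes with r from 0.970 to 0.988.

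The strain comparison in unheated testes asked whether the strains begin at different levels. Tnfrsf12a with 1418572_x_at was 0.18 higher in AKR/N (SE 0.365, limma adjusted p = 0.840; 95% interval -0.60 to 0.97), within the spread between arrays, and 6.29% of the 15762 genes passed at an adjusted p under 0.05. Over the mean of the 5 conditions AKR/N was lower by 0.52 (difference -0.52, SE 0.163, adjusted p = 0.0280), in a comparison that 27.8% of all genes passed. With 1418571_at that difference was -0.41 (adjusted p = 0.187 in a fit of all probe sets) and did not pass. It also ended when any 1 of 10 arrays was left out, with values from -0.51 to -0.42 and adjusted p from 0.0519 to 0.0640. These were, in AKR/N, control replicate 2, 8 h replicate 1, 10 h replicate 2, 12 h replicate 2 and 24 h replicate 1, and, in C57BL/6, control replicate 2, 8 h replicate 2, 10 h replicate 1, 12 h replicate 1 and 24 h replicate 2.

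The difference in the heat effect between the strains was tested as an interaction, heated minus control in AKR/N minus the same in C57BL/6. At 24 h it was -1.82 with 1418572_x_at (SE 0.516, 95% interval -2.93 to -0.71), with an unadjusted p of 0.00348 in limma and an adjusted p of 0.0815, which misses the threshold, and 1.76% of all genes passed. It passed with a pseudocount of 64 (-1.38, adjusted p = 0.0161) and with limma's variance trend (adjusted p = 0.0307). With 1418571_at it was -1.74 (adjusted p = 0.203 over all probe sets). At 10 h it was -1.28 (adjusted p = 0.339, 0.0317% of genes passing) and with 1418571_at -0.33 (adjusted p = 0.892 over all probe sets). At 12 h it was -0.10 and 0.06 with these probe sets. Averaged over the 4 times it was -0.88 (adjusted p = 0.389, 0.019% passing), and limma's moderated F over the 4 times gave F = 4.86 (adjusted p = 0.215, 0.0825% passing), which passed narrowly with a pseudocount of 64 (adjusted p = 0.0491).

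After these values had been seen, the strains were also compared directly at each time. At 24 h AKR/N was lower by 1.64 with 1418572_x_at (difference -1.64, SE 0.365, limma adjusted p = 0.00878; 14.5% of genes passed) and by 1.74 with 1418571_at (difference -1.74, adjusted p = 0.0305 over all probe sets), and both AKR/N arrays were under both C57BL/6 arrays. The first of these no longer passed without AKR/N 24 h replicate 1 (-1.14, adjusted p = 0.110) or without C57BL/6 24 h replicate 2 (-1.59, adjusted p = 0.0573), nor on the log2(signal + 1) scale (-1.78, adjusted p = 0.0567). At 10 h the difference was -1.10 (adjusted p = 0.0785; 9.15% passed). It passed without AKR/N 10 h replicate 1 (-1.62, adjusted p = 0.0320), with a pseudocount of 64 (-0.72, adjusted p = 0.0342) and with the variance trend (adjusted p = 0.0369). With 1418571_at it was -0.33 (adjusted p = 0.740 over all probe sets), and the arrays of the strains overlapped. At 8 h it was -0.14 (adjusted p = 0.917; 4.5% passed) and at 12 h 0.08 (adjusted p = 0.941; 5.72% passed), both smaller than the SE.

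Between 12 and 24 h the group means ran in opposite directions in the strains. The 24 h minus 12 h difference of 1418572_x_at was 0.75 in C57BL/6 and -0.97 in AKR/N, and with 1418571_at 0.89 and -0.91. The arrays of 12 and 24 h did not overlap in either strain with either probe set. The difference between the strains, chosen for testing after it was seen, was -1.72 (SE 0.516, 95% interval -2.83 to -0.61, limma adjusted p = 0.222), and 0.0508% of genes passed. With 1418571_at it was -1.80 (adjusted p = 0.360).

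The other genes of the pathway were taken from a list of 32 ligands, adaptors, kinases and NF-kB subunits, of which 27 were tested. Tnfsf12, the ligand itself, is read by 2 probe sets that are annotated to several genes, so no level is given for it. Traf3, Ripk1, Chuk and Nfkb1 also have no probe set of their own. At 24 h in C57BL/6, 14 of the 27 rose, 1 fell and 12 did not pass, with a median of 0.58, whereas over all genes 21.4% rose and 16.6% fell with a median of 0.08. At 24 h in AKR/N, 6 rose, 1 fell and 20 did not pass, with a median of 0.30, against 12.3% and 11.1% of all genes and a median of -0.01. The difference from control was higher in C57BL/6 for 19 of the 27, and for 56.4% of all genes. Of the 27, 0 passed the interaction test at 24 h, and 7 had an unadjusted p under 0.05 in limma, as did 19.3% of all genes.

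Among the signalling members, Rac1, a small GTPase that Fn14 signalling engages, rose by 1.29 in C57BL/6 (SE 0.168, limma adjusted p = 6.7e-05) and by 0.86 in AKR/N (adjusted p = 0.00329). Its signals went from 248 and 309.5 to 741 and 665 in C57BL/6 and from 393 and 311 to 624 and 676 in AKR/N, without overlap. Another Rac1 probe set gave 0.20 and 0.50. Birc3, an inhibitor of apoptosis that joins TRAF2 complexes and is itself an NF-kB target, rose by 1.55 in C57BL/6 (adjusted p = 0.000467) and by 0.83 in AKR/N (adjusted p = 0.0359). Its signals were 30.2 and 32.0 in the C57BL/6 controls and 126.5 and 117.5 at 24 h, but its other probe set gave -0.06 and -0.41. In C57BL/6 Cyld, a deubiquitinase that restrains NF-kB, rose by 0.97, and Casp8, the initiator caspase of death receptors, by 1.20. Other Cyld probe sets gave -0.32 to 1.24 there.

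Of the non-canonical NF-kB branch, Relb rose in C57BL/6 by 1.42 (limma adjusted p = 0.00240). Its signals were 1.78 and 11.9 in the controls, both dim, and 52.4 and 36.2 at 24 h. In AKR/N Relb differed by 0.32 (adjusted p = 0.492). Nfkb2, its partner subunit, differed by 0.70 (adjusted p = 0.283) and -0.34 (adjusted p = 0.655), and Map3k14, the kinase NIK at the head of the branch, by 0.00 (adjusted p = 0.995) and -0.35 (adjusted p = 0.333). Traf2, an adaptor of the complex that keeps NIK low, differed by -0.32 (adjusted p = 0.103) and 0.02 (adjusted p = 0.939). Of these 4 genes, Relb in C57BL/6 was the one that passed, while Nfkb2 passed in C57BL/6 when its probe sets were averaged (0.89, adjusted p = 0.0157) and Traf2 after quantile normalization (-0.46, adjusted p = 0.0319).

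In AKR/N at 24 h Cd163, a macrophage scavenger receptor that can take up TWEAK, rose by 0.89 (limma adjusted p = 0.00588), from signals of 9.64 and 2.13 to 21.8 and 26.4. Its controls lay under the dim signal, so the size of this difference is not fixed. AKR/N at 24 h was the one group through which Cd163 entered the test, so the filter itself favoured a rise there. The call is therefore no support for a rise, though it is among the 6 risen AKR/N members counted above. In C57BL/6 Cd163 differed by 0.01 (adjusted p = 0.974), and the difference between strains was 0.88 (adjusted p = 0.104). Tab2, an adaptor of the kinase TAK1, rose by 0.64 (0.27 with its other probe set) and Rela, the main activating NF-kB subunit, fell by 0.61 in AKR/N. Each of these AKR/N calls was lost without 1 of 2 or 3 arrays. The Cd163 call ended without 24 h replicate 2 (adjusted p = 0.0645) or control replicate 2 (0.0625). The calls of Rela (0.0853 and 0.0983) and Tab2 (0.118 and 0.108) ended without 24 h replicate 2 or control replicate 1. That of Birc3 ended without 24 h replicate 1 (0.0693), 24 h replicate 2 (0.200) or control replicate 2 (0.221). The count of 7 called members in AKR/N became 1 without 24 h replicate 2 and 4 without either control array.

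**Figure D3:**
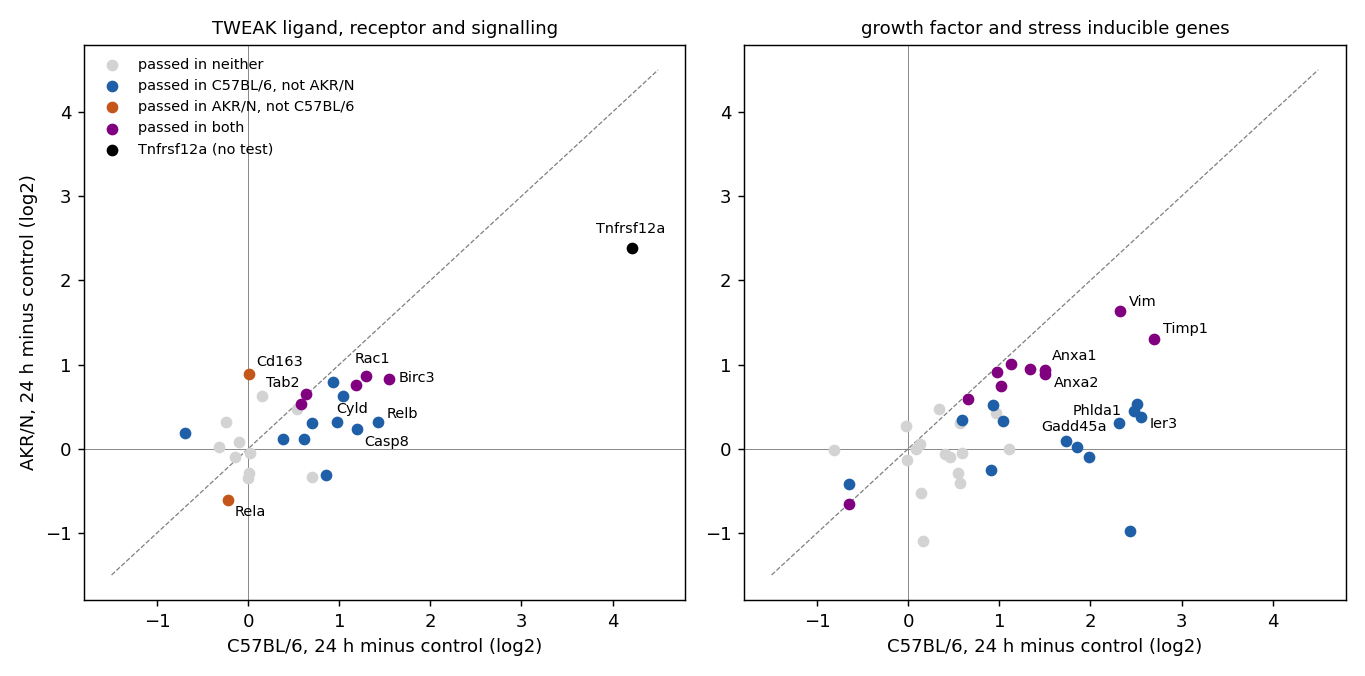
Difference from control at 24 h in C57BL/6 (horizontal) and AKR/N (vertical), log2, for the tested members of the TWEAK signalling list (left, with Tnfrsf12a in black) and of the growth factor and stress inducible list (right). Each point is a gene, colours give the strains in which it passed at an adjusted p under 0.05, and the dashed line marks equal differences. Tnfrsf12a (4.21 and 2.39) lies apart from the other members of its list, and most points of both lists lie under the line.

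Of 28 other TNF receptor family members, 20 were tested. In C57BL/6, 3 rose, 1 fell and 16 did not pass (median 0.14), and in AKR/N 2 fell and 18 did not pass (median -0.23). Over all genes 21.4% rose and 16.6% fell in C57BL/6, and 12.3% and 11.1% in AKR/N. Tnfrsf21, the death receptor DR6, rose by 1.36 in C57BL/6 (limma adjusted p = 0.000465), although its other probe set gave 0.23. Fas, the death receptor for Fas ligand, rose by 1.27 (adjusted p = 0.00157), from 6.65 and 2.77, under the dim signal, to 41.9 and 26.6. Tnfrsf1a, the main TNF receptor, rose by 0.72 (adjusted p = 0.0273). That call ended without 24 h replicate 1 (adjusted p = 0.158), control replicate 1 (0.119) or control replicate 2 (0.0764). Ngfr, the p75 neurotrophin receptor, fell by 1.32 in C57BL/6 (adjusted p = 0.00460) and by 1.29 in AKR/N (adjusted p = 0.0106). With its probe sets averaged the C57BL/6 difference was -0.40 and did not pass (adjusted p = 0.126). In AKR/N Edar, the ectodysplasin receptor, fell by 1.26 (adjusted p = 0.0101), from signals of 38.6 and 18.9 to 1.21 and 3.42, under the dim signal. Both AKR/N calls ended without either 24 h array (0.0582 and 0.0528 for Ngfr, 0.0533 and 0.0543 for Edar), that of Ngfr also without control replicate 2 (0.0601) and that of Edar without control replicate 1 (0.0961). The AKR/N count was 0 without either 24 h array and 1 without either control array.

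Of 18 TNF family ligands, 14 had a probe set of their own and 6 were bright enough to be tested. Of these 6, Tnfsf4, the ligand OX40L, rose in C57BL/6 at 24 h, and the other 5 did not pass (median of the list 0.34). Tnfsf4 rose by 1.26 (limma adjusted p = 0.00894), from signals of 5.78 and 4.32, under the dim signal, to 44.0 and 26.05. This was lost without C57BL/6 24 h replicate 1 (adjusted p = 0.0884) or control replicate 2 (0.0527). The C57BL/6 count was 2 without any 1 of the arrays 8 h replicates 1 and 2 and 12 h replicates 1 and 2. In AKR/N 0 passed in limma and 0 had an unadjusted p under 0.05 (median -0.27).

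A list of 23 genes known to be raised by TWEAK in other tissues had 16 members tested, and 4 of its genes (Birc3, Nfkb2, Nfkbia and Traf1) are also on the signalling list. In C57BL/6 at 24 h 7 rose, 1 fell and 8 did not pass (median 0.53), and in AKR/N 2 rose, 1 fell and 13 did not pass (median 0.24). Over all genes the shares were 21.4% up and 16.6% down in C57BL/6 and 12.3% up and 11.1% down in AKR/N, so the AKR/N count is near that of genes at large. The chemokine Cxcl2, which draws neutrophils, rose in C57BL/6 by 1.08 (limma adjusted p = 0.00401) from a control mean of 3.86, under the dim signal. The adhesion molecules Icam1 and Vcam1 rose there by 0.999 (adjusted p = 0.00701) and 0.63 (adjusted p = 0.00961), but both calls ended without 24 h replicate 1 (0.0851 and 0.0834) or control replicate 2 (0.0590 and 0.0617). In AKR/N Vcam1 rose by 0.56 (adjusted p = 0.0281). Other Vcam1 probe sets gave 0.97 and 1.42 in C57BL/6 and 0.40 and 0.91 in AKR/N. Cxcl1, another neutrophil chemokine, rose by 0.69 in C57BL/6 (adjusted p = 0.0126) and fell by 0.66 in AKR/N (adjusted p = 0.0273), while its other probe sets gave 2.33 and 1.09 in C57BL/6 and 0.18 and -0.97 in AKR/N. The AKR/N calls of Vcam1 (0.0703, 0.153 and 0.184) and Cxcl1 (0.101, 0.110 and 0.157) ended without 24 h replicate 1, 24 h replicate 2 or control replicate 1. The C57BL/6 count of 8 called members became 3 without 24 h replicate 1 or control replicate 2 and 5 without 24 h replicate 2 or control replicate 1, and the AKR/N count of 3 became 0 without either 24 h array.

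Genes that, like Tnfrsf12a, are known to be induced by growth factors and stress made up a list of 42, of which 39 were tested. In C57BL/6 at 24 h 21 rose, 2 fell and 16 did not pass (median 0.93), and in AKR/N 9 rose, 1 fell and 29 did not pass (median 0.27), where 21.4% and 12.3% of all genes rose and 16.6% and 11.1% fell. The difference from control was higher in C57BL/6 for 35 of the 39, and for 56.4% of all genes. The interaction at 24 h, which 1.76% of all genes passed, passed for 4 of them, Phlda1, Ier3, Gadd45a and Cdkn1a, the last of which was named after its value was seen. The AKR/N count of 10 called members became 2 without 24 h replicate 2 and 5 without control replicate 2.

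Vim, the intermediate filament vimentin of Sertoli and other somatic cells, rose in both strains, by 2.33 in C57BL/6 (SE 0.137, limma adjusted p = 1.3e-06) and by 1.63 in AKR/N (adjusted p = 6.7e-05). Ier3, an early response gene that modulates NF-kB and survival, rose by 2.55 in C57BL/6 (adjusted p = 9.3e-06) and differed by 0.38 in AKR/N (adjusted p = 0.292). Its AKR/N signals were 47.9 and 25.5 in controls, 155 and 132 at 12 h and 45.2 and 57.2 at 24 h, against 16.2 and 20.1, 115.5 and 180.1, and 179 and 189 in C57BL/6. Phlda1, a growth factor and stress inducible protein, rose by 2.48 in C57BL/6 and differed by 0.45 in AKR/N, and Gadd45a, a DNA damage and stress gene, rose by 1.74 and differed by 0.09. The Phlda1 controls read 17.7 and 13.7 in C57BL/6 and 35.5 and 44.35 in AKR/N. Those of Gadd45a read 16.8 and 14.1, under the dim signal, and 33.7 and 33.6. The interactions of both genes take in these gaps between controls. In AKR/N the protease inhibitor Timp1 rose by 1.31 and the annexins Anxa1 and Anxa2, membrane-binding proteins, by 0.94 and 0.89. With the probe sets of Anxa2 averaged its difference was 0.43 and did not pass (adjusted p = 0.256). The Timp1 and Anxa1 calls ended without AKR/N 24 h replicate 2 (adjusted p = 0.0598 and 0.0595).

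The genes whose 10 group means ran most like those of Tnfrsf12a (1418572_x_at) were sought among 5281 genes spanning at least 1 on the log2 scale. The 10 highest were Ccnt2, a cyclin of the transcription elongation factor P-TEFb (r = 0.976), Ddx3x, an X-linked RNA helicase, the small GTPase Rap1b, the amino acid transporter Slc1a4, the transcriptional regulator Eya4, the basement membrane collagen Col4a2, the phosphatase catalytic subunit Ppp2ca, Tmbim1, the glycolytic enzyme Aldoa and the CTP synthase Ctps (r = 0.968). These values describe 10 points that share one course of heat and time, and the choice is not stable: 1 of the 10 remained when 1418571_at stood for Tnfrsf12a, and the other probe sets of Ccnt2 differed by -0.27 to 0.75 at 24 h in C57BL/6. Their differences at 24 h ran from 0.99 for Ctps to 1.86 for Ddx3x in C57BL/6 and from 0.35 for Aldoa to 1.21 for Ddx3x in AKR/N, smaller than that of Tnfrsf12a in each strain. Of the 10 genes, 9 have a promoter window with a GC box, 1 with the AP-1 site, 2 with the CRE and 0 with the heat shock element unit. A gene was counted if any of its windows matched. The counts therefore cannot be set beside the shares of single windows given above, and no share by gene was computed.

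**Figure D4:**
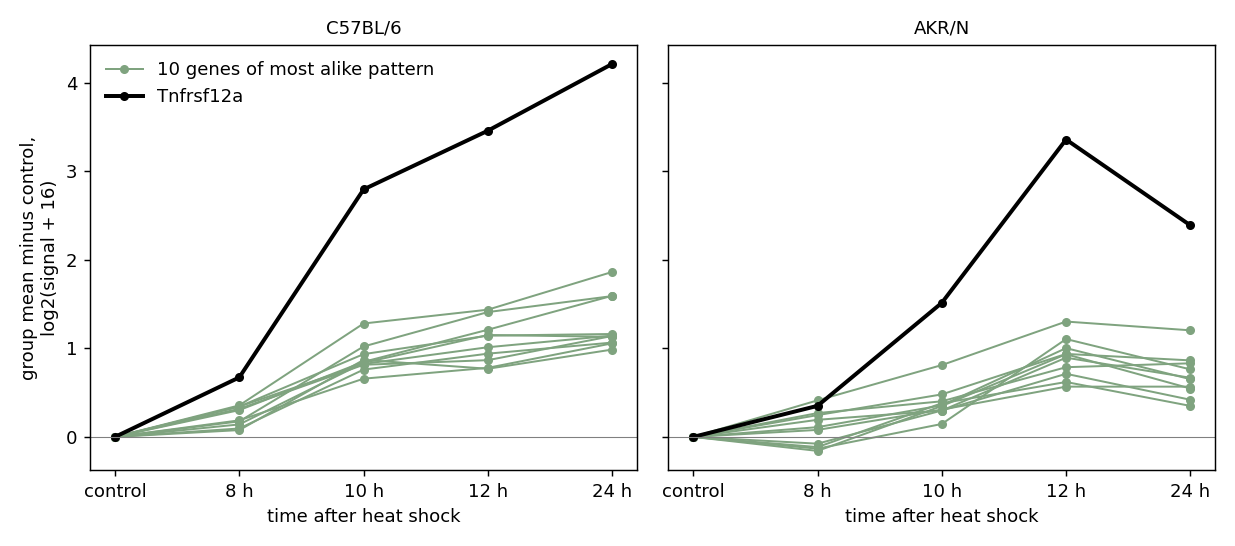
Group mean minus the strain's control mean on the log2(signal + 16) scale, by time after heat shock with times spaced evenly, for Tnfrsf12a (black, 1418572_x_at) and the 10 genes of most similar pattern (green), in C57BL/6 (left) and AKR/N (right). Lines join means of 2 arrays. Tnfrsf12a reaches 4.21 in C57BL/6 at 24 h, where the 10 genes reach 0.99 to 1.86.

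The neighbours of the gene on chromosome 17 were read in the same arrays. On 1 side lie Hcfc1r1, whose span overlaps that of Tnfrsf12a by 80 bases, Thoc6 at 1528 bases and Bicdl2 at 6824 bases. At 24 h they differed from control by -0.33, -0.33 and -0.42 in C57BL/6 (limma adjusted p = 0.0759, 0.452 and 0.292) and by -0.19, 0.06 and -0.66 in AKR/N (adjusted p = 0.357, 0.915 and 0.118). On the other side Cldn6 and Cldn9 were too dim to test, with mean signals of 7.53 and 6.41, and 1520401A03Rik has no probe set of its own. None of the 3 tested neighbours moved with Tnfrsf12a past the threshold.

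Markers of the cells of the testis were read beside these results. Those of spermatids had median signals of 1758 to 11140, while 7 markers of epididymis had 4.48 to 21.2 and 6 of neutrophils 3.24 to 51.8. No marker list was at 0 as a whole, but some markers stayed dim in every group. These were Amh of the Sertoli list, Itgam of the macrophage list, Camp of the neutrophil list and Lcn5, Adam28 and Cst11 of the epididymis list. The summed signal of 13 Sertoli markers was 9884 to 9980 in C57BL/6 controls and 18160 to 18860 at 24 h, and 10610 to 11150 and 16260 to 17000 in AKR/N. This sum is mostly Clu, Ctsl and Aard, with median signals of 5194, 3329 and 1805, where the next highest, Inha, had 592. At 24 h 8 of 12 tested Sertoli markers rose in C57BL/6 and 7 of 12 in AKR/N, against 21.4% and 12.3% of all genes. Of 10 macrophage markers 6 and 4 rose. The 4 in AKR/N include Cd163, which entered the test through AKR/N at 24 h alone, so its call is no support for a rise. The summed macrophage signal was 2938 to 3214 in C57BL/6 controls and 4462 to 4576 at 24 h. In AKR/N it was 3828 to 3927 in controls and 4351 to 4403 at 24 h. This sum, over 11 markers, is mostly Aif1, whose median signal was 2815 where the next highest, Csf1r, had 208.

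The counts of the other markers stand beside the same shares of all genes, 21.4% up and 16.6% down in C57BL/6 and 12.3% up and 11.1% down in AKR/N, and several lie near them. Of 9 endothelial markers 4 rose in C57BL/6 and 1 in AKR/N. Their summed signal in C57BL/6 was 271 to 308 in controls, 413.5 to 429 at 12 h and 501 to 559 at 24 h, and in AKR/N 326.5 to 338, 481 to 497 and 409 to 471. Of 8 peritubular myoid markers 2 rose in C57BL/6 and 4 in AKR/N, and of 7 Leydig markers 3 rose and 2 fell in C57BL/6 while 2 fell in AKR/N. Of 8 spermatogonial markers 2 and 3 rose, of 9 pachytene markers 1 rose and 4 fell in each strain, and of 12 spermatid markers 4 and 2 rose. Of 4 epididymal markers 1 fell in C57BL/6, and in AKR/N 0 passed in limma and 1 had an unadjusted p under 0.05. Of 5 neutrophil markers 0 passed and 0 had an unadjusted p under 0.05 in either strain. The part of the somatic markers in the Tnfrsf12a levels was not tested.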

How the data were processed

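Whole testis RNA was extracted with Trizol and labelled with biotin, per the labels' protocols. The authors deposited 1 signal per probe set and array, an intensity on a linear scale. For the software and the summary method, no source used here gives a name. With 2% of the probe sets trimmed at each end, the mean signal was 125.001 on each of the 20 arrays. All 45101 probe sets were read, and 64 control probe sets were left out. Annotation named 1 gene for 34945 probe sets, several for 932 and none for 9160, and the first kind was used.

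Signals were taken as log2(signal + 16). The probe set of highest mean stood for its gene. Genes whose highest group mean reached the 40th percentile (log2 5.07, signal 17.5) were tested, 15762 of 18193. limma 3.58.1 (R 4.3.3, data.table, version 1.17.8) was fitted with 1 mean per group to all arrays, and a second fit held every probe set above the same filter (28000). P-values were adjusted by Benjamini-Hochberg, and a gene passed under 0.05. Errors with log2 differences are limma's SE. The fit was tested on simulated data. Plots used matplotlib 3.10.9 and pandas 2.3.3 in Python 3.11.15.

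The gene, the lists and the rule for named genes were chosen with earlier results of these data known. The rule takes 7 members of the TWEAK list (Tnfsf12, Cd163, Traf2, Map3k14, Nfkb2, Relb, Birc3), up to 4 called members per pathway list and strain at 24 h by adjusted p, the 10 genes of most similar pattern and 3 neighbours on each side. The strain differences at single times and the 24 h minus 12 h contrasts were added after seeing the data. Alternatives covered the pseudocount, normalization, filter, variance trend, probe set choice, a replicate block and left-out arrays. The number of arrays limits the precision.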

Additional observations from a re-analysis of the deposited data

Results flagged for a closer look

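Tnfrsf12a stands here because its group means ran in opposite directions between 12 and 24 h, higher at 24 h in C57BL/6 and lower in AKR/N, without overlap of arrays and with both probe sets. The difference between the strains was -1.72 on the log2(signal + 16) scale and did not pass when tested across all genes (limma adjusted p = 0.222).

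Of the genes named by rule from the lists, 4 passed the limma interaction at 24 h (AKR/N minus C57BL/6), which 1.76% of all genes passed. Each was named for its 24 h call in 1 strain. The interaction uses that value again, so the choice itself favoured a difference. For each of the 4, both AKR/N controls also read higher than both C57BL/6 controls. The interaction was -2.17 for Ier3 (adjusted p = 0.0189), -2.04 for Phlda1 (adjusted p = 0.00917), -1.65 for Gadd45a (adjusted p = 0.0127) and -1.35 for Cxcl1 (adjusted p = 0.0332). Left-out arrays ended these calls for 8 of the 20 arrays with Cxcl1 (adjusted p up to 0.119), 6 with Ier3 (up to 0.0762), 4 with Gadd45a (up to 0.0707) and 1 with Phlda1 (0.0558, AKR/N 24 h replicate 1). Without that array the differences were -1.32, -2.04, -1.501 and -1.91 in the same order. Causes were not tested.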

How the results depend on the processing

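Each result was recomputed under 10 other settings, where they apply, and without each array in turn, and results not given here kept their direction and their side of the threshold. With log2(signal + 1), the mean strain difference was -0.54 (adjusted p = 0.137) and that at 24 h -1.78 (0.0567), and the differences from control were 1.61, 4.47, 5.19 and 5.98 in C57BL/6 and, from 10 h, 2.55, 4.69 and 3.62 in AKR/N. With log2(signal + 64) these were 0.25, 1.49, 2.02 and 2.67, and 0.72, 2.03 and 1.29, the 24 h interaction was -1.38 (0.0161), the F test gave 0.0491, the 10 h strain difference was -0.72 (0.0342), and 2 of the 10 genes of similar pattern remained. With the variance trend the 24 h interaction (-1.82, 0.0307) and the 10 h strain difference (-1.10, 0.0369) passed. With 1418571_at the mean strain difference was -0.41 (0.172), that at 10 h -0.33 (0.730), the differences from control were -0.27, 2.02 and 2.99 up to 12 h in C57BL/6 and -0.35 at 8 h in AKR/N, and 1 gene of similar pattern remained; with median centring 6 remained.

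Counts of called members at 24 h were 1 for AKR/N TNF receptors with a stricter filter or with the mean of a gene's probe sets, 0 for C57BL/6 TNF ligands with the stricter filter, and 0 for AKR/N genes raised by TWEAK with the mean of probe sets. Signs turned for Cd163 in C57BL/6 (-0.11 with median centring, -0.090 with quantile normalization), Traf2 in AKR/N (-0.075, quantile normalization), and Map3k14 in C57BL/6 (0.15) and Nfkb2 in AKR/N (0.029) with the mean of probe sets. None of these passed. Calls also ended with the mean of probe sets for Birc3 (0.21), Anxa2 (0.43), Cxcl1 (-0.48) and Vcam1 (0.62) in AKR/N and Ngfr (-0.40) in C57BL/6, with median centring for Vcam1 in C57BL/6 (0.51) and AKR/N (0.57) and the Cxcl1 interaction (-1.22), and with log2(signal + 1) for Birc3 in AKR/N (1.02), while Nfkb2 (0.89, mean of probe sets) and Traf2 (-0.46, quantile normalization) passed in C57BL/6.

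Leaving out 1 array in turn gave ranges of -0.63 to -0.42 for the mean strain difference, -0.43 to 0.15, -1.62 to -0.58, -0.19 to 0.35 and -2.14 to -1.14 for that at 8, 10, 12 and 24 h, 0.996 to 2.03 and 1.89 to 2.89 for AKR/N against control at 10 and 24 h, and -1.47 to -0.47 for AKR/N 24 h minus 12 h. Called members ran from 1 to 8 (TWEAK signalling, AKR/N), 0 to 2 (TNF receptors, AKR/N), 0 to 2 (TNF ligands, C57BL/6), 3 to 9 and 0 to 4 (genes raised by TWEAK, C57BL/6 and AKR/N) and 2 to 12 (growth factor and stress list, AKR/N), and 6 to 10 genes of similar pattern remained. Signs turned without single arrays for Tnfrsf12a between strains at 8 h (0.14, 0.15) and 12 h (-0.19, -0.14), and, over all left-out arrays, in AKR/N Relb ran from -0.054 to 0.69, Traf2 from -0.019 to 0.059 and Nfkb2 from -0.70 to 0.020, and in C57BL/6 Cd163 from -0.066 to 0.088 and Map3k14 from -0.094 to 0.088. The causes were not tested.

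Replicate numbers gave no sign of a pairing common to all groups (r of deviations -0.28 to 0.30 over 45 pairs of groups, median -0.00855, 4 above 0.1). Whether some groups share a batch was not tested. With the replicate block the mean strain difference of Tnfrsf12a was -0.52 (adjusted p = 0.0364), that at 24 h -1.64 (0.0131) and the 24 h interaction -1.82 (0.101), and the block moved no count of calls by over 1.5 times. With 2 arrays a group, and controls under the dim signal, the size of the rise over control is bounded poorly.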
